A study of Mus with 4 samples.

Results

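The genes described are 10 chemokines that liver endothelium can make, namely Ccl2, Ccl5, Ccl7, Cxcl1, Cxcl2, Cxcl9, Cxcl10, Cxcl12, Cxcl16 and Cx3cl1. They were chosen by name, as 10 Ensembl identifiers among the 54532 of the deposited count table, and all 10 had enough reads to be tested. The cells were liver sinusoidal endothelial cells (LSECs), which line the small vessels of the liver, and every mouse had received carbon tetrachloride (CCl4), a toxin that injures hepatocytes and causes fibrosis. There were 2 libraries from Pofut1 knockout mice (P1KO, columns KO1 and KO3) and 2 from control mice (CTL, columns CTL1 and CTL2). POFUT1 adds O-linked fucose to Notch receptors and other proteins with EGF-like repeats. The series asks through which genes endothelial POFUT1 acts on LSECs and on hepatic stellate cells. The labels give no Cre driver, strain, age, sex, CCl4 schedule or number of mice per library, so the deletion is placed in endothelium by the series title alone, and what the CTL mice carried is not specified. The extraction text of the labels names heart ventricles, against liver and LSECs in the tissue and cell type fields.

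Chemokines are small secreted or membrane-bound proteins that guide leukocytes. They are grouped by the spacing of their first cysteines (CC, CXC, CX3C), and they act on G protein-coupled receptors whose names follow the same scheme. Endothelial cells make chemokines, hold them on heparan sulphate at the vessel surface and show them to leukocytes passing by, and in the liver sinusoids this helps to set which leukocytes stay after injury. Several of the 10 are also made by macrophages, stellate cells, hepatocytes and lymphocytes.

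The libraries held 17464769 to 17918834 counts. Levels are CPM, read counts scaled to the library total with TMM factors, and 1 read is worth 0.0560 to 0.0570 CPM. Since transcript lengths were not used, a difference in reads between genes is not taken as one in transcript number. Over the 15510 tested genes the P1KO pair had a biological coefficient of variation of 12.1% and the CTL pair one of 3.22%. No identifier beyond the 10 could be paired with a symbol. Pofut1 and the markers of endothelium and of other cells are therefore not analysed here, and the labelled cell type was not checked. In bulk RNA, fewer cells of a type and less RNA per cell cannot be told apart, and the part that other cells in the preparations have in any level below was not tested. Separate mice behind the libraries of a group are not stated in the labels, so each p-value reflects only the scatter among these 4 libraries, which may be technical.

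The 10 chemokines did not move in one direction. Cxcl9 and Ccl2 rose and Cxcl2 fell in P1KO, so 3 of 10 passed the test (edgeR quasi-likelihood test, adjusted p below 0.05), 2 higher and 1 lower. Of all tested genes, 19.5% passed, 9.68% higher and 9.84% lower, and a count of 3 in 10 is too small to set apart from that share. The median log2 fold change, P1KO over CTL, was -0.05 for the 10 and -0.01 for all tested genes, and the median of its absolute size was 0.34 and 0.22. The groups did not overlap for 5 of the 10, Ccl2, Cxcl1, Cxcl2, Cxcl9 and Cx3cl1, and for 62.6% of all tested genes. The 7 that did not pass had 95% intervals of the fold change that included no change.

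The number of chemokines that passed depended on the libraries and the tool. Ccl2, Cxcl2 and Cxcl9 also passed in edgeR with DESeq2 size factors (19.7% of all tested genes) and with library totals (19.2%). The same genes passed in limma-voom with a spread per group (19.1%) and in edgeR with a filter of a mean of at least 5 CPM (25.4%). DESeq2 called Ccl2 and Cxcl9, 2 of the 10 (15.4% of all genes it tested), and limma-voom called Cxcl2 and Cxcl9 (20.1%). In edgeR without a filter on low counts, Cxcl9 was the 1 that passed (6.24%). Without CTL1 edgeR called 0 of the 10 (0.832% of all genes), with 2 at an unadjusted p below 0.05, and without CTL2 it called 0 (0.774%), with 1 at that level. Summing both CTL libraries into 1 likewise left 0 (0.98%), with 1 at an unadjusted p below 0.05. Without KO1, 4 of the 10 passed (34.8%), and without KO3, 7 did (33.6%). In these fits a lone library is assumed to vary like the pair of the other genotype, and the CTL pair was by far the closer one.

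**Figure D1:**
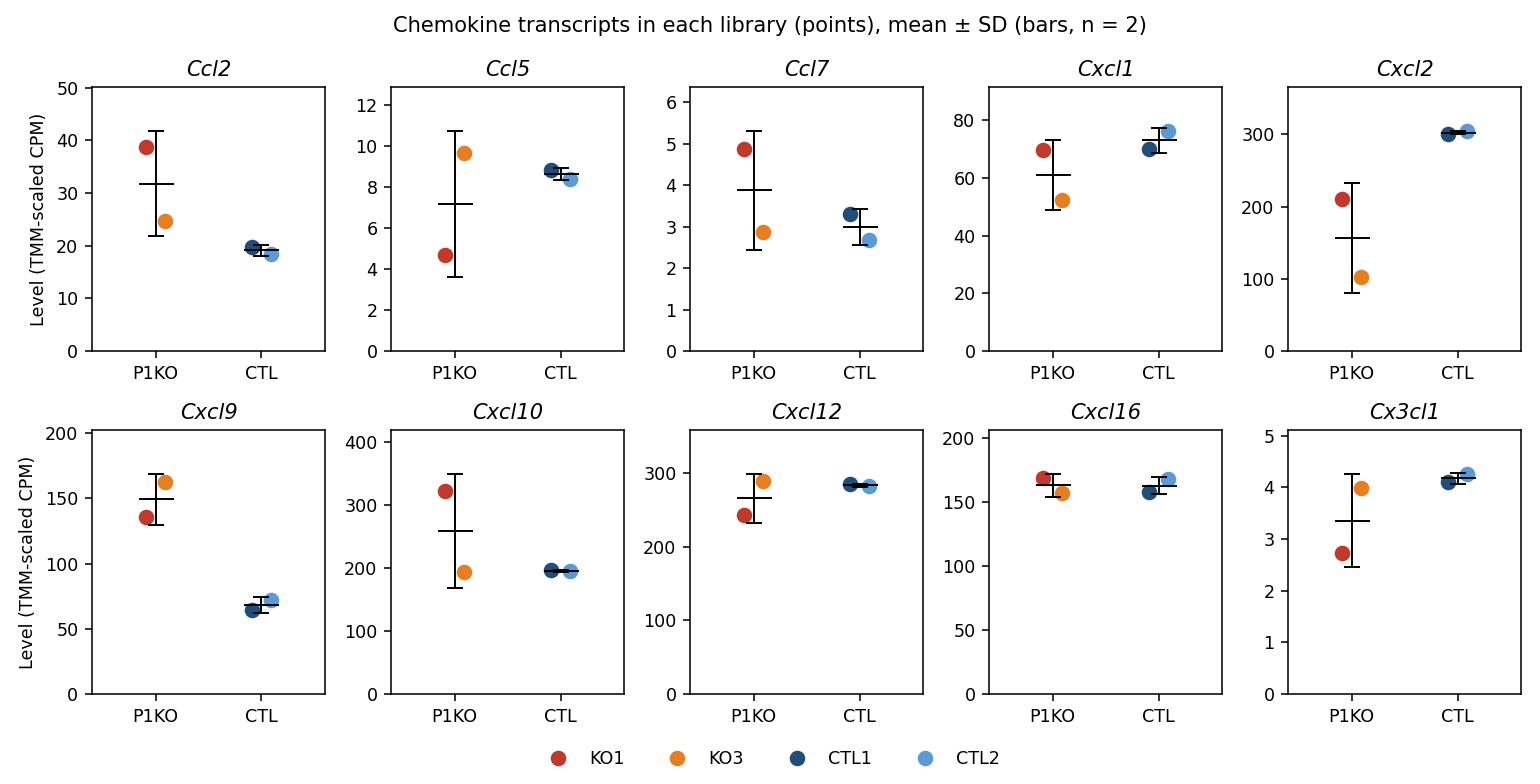
TMM-scaled CPM of each chemokine in each library (points), with the mean and SD of the 2 libraries per genotype (black bars); each panel starts at 0 and has its own scale. Cxcl9 is higher and Cxcl2 lower in both P1KO libraries, and for most genes the CTL points nearly coincide while the P1KO points lie apart.

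Of the listed ligands of CXCR3, the receptor by which activated T cells and NK cells are drawn in, Cxcl9 rose and Cxcl10 did not pass the test. Cxcl9 (ENSMUSG00000029417), a ligand strongly induced by interferon gamma, measured 136 CPM in KO1 and 163 in KO3, against 64.2 CPM in CTL1 and 72.4 CPM in CTL2. The lower P1KO library was well above the higher CTL library. Its mean was 149 ± 19.3 CPM in P1KO and 68.3 ± 5.80 CPM in CTL (SD, n = 2 each), and the fitted level was 2.18-fold higher in P1KO (95% interval 1.85 to 2.57, log2 fold change 1.13 ± 0.10 SE, edgeR adjusted p = 0.000543). A change of at least this size was found for 847 of the 15510 tested genes.

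The rise of Cxcl9 was of similar size with any 1 library left out, but its call was lost without either CTL library. The log2 fold change was 1.25 without KO1 and 0.99 without KO3, and it was 1.04 without CTL1 (edgeR adjusted p = 0.0639) and 1.21 without CTL2 (edgeR adjusted p = 0.0545). Fits without KO1 or KO3 take their spread from the CTL pair alone. Their p-values leave out the spread between knockout libraries and are not given, here or below.

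Cxcl10 (ENSMUSG00000034855), the other CXCR3 ligand measured, is also induced by interferons and lies next to Cxcl9 on chromosome 5, with 18558 bases and no other whole gene between them. It did not pass, with 322 CPM in KO1 and 194 CPM in KO3, against 196 CPM in CTL1 and 194 CPM in CTL2. KO1 stood alone, and KO3 was level with the controls. The fitted difference was 1.32-fold (95% interval 0.961 to 1.81, edgeR adjusted p = 0.197). The mean was 258 ± 90.5 CPM in P1KO and 195 ± 1.32 CPM in CTL (SD, n = 2 each). Without KO3 the log2 fold change was 0.72, and without KO1 it was -0.01, so the difference was present in KO1 and not in KO3.

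The balance of these neighbours within a library needs no scaling between libraries. Cxcl9 had 0.421 reads per Cxcl10 read in KO1 (95% exact binomial interval 0.401 to 0.441) and 0.839 in KO3 (0.798 to 0.882), against 0.327 in CTL1 (0.305 to 0.350) and 0.372 in CTL2 (0.349 to 0.397). Both P1KO ratios were above both CTL ratios, and that of KO3 was far above that of KO1. These intervals cover counting error only. In RefSeq on GRCm38.p6, the assembly behind the mm10 build named in the submitters' processing notes, Cxcl9 spans chromosome 5 from 92321331 to 92328079 and Cxcl10 from 92346638 to 92348889. The span of a further gene, Art3, overlaps that of Cxcl10. Whether exons of both genes overlap in the annotation used for counting was not checked. The strand setting of the counting is not given in the sources used here. If exons do overlap, their reads may have been counted for either gene or for neither.

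Of the listed ligands of CXCR2, which bring in neutrophils, Cxcl2 fell and Cxcl1 did not pass the test. Cxcl2 (ENSMUSG00000058427) measured 211 CPM in KO1 and 103 in KO3, against 301 CPM in CTL1 and 305 CPM in CTL2. Both P1KO libraries were below the controls, KO3 much further than KO1. The mean was 157 ± 76.6 CPM in P1KO and 303 ± 2.49 CPM in CTL (SD, n = 2 each). The fitted level in P1KO was 0.517 of that in CTL (95% interval 0.334 to 0.802, log2 fold change -0.95 ± 0.27 SE, edgeR adjusted p = 0.0471). A change of at least this size was found for 1207 of the 15510 tested genes.

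The call of Cxcl2 was close to the threshold and was lost in several fits. DESeq2 gave a log2 fold change of -0.95 with an adjusted p of 0.219, and without a filter on low counts edgeR gave an adjusted p of 0.164. The call was kept in limma-voom (adjusted p = 0.0264), also with a spread per group (limma-voom adjusted p = 0.00363). The log2 fold change was -1.56 without KO1 and -0.52 without KO3, so its size depended on which knockout library was kept.

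Cxcl1 (ENSMUSG00000029380) acts on the same receptor and is the gene before Cxcl2 on chromosome 5, 10777 bases away. It measured 69.5 CPM in KO1 and 52.4 in KO3, against 70.0 CPM in CTL1 and 76.1 CPM in CTL2. KO1 was within 1 CPM of CTL1 and KO3 was lower. The fitted level in P1KO was 0.834 of that in CTL (95% interval 0.682 to 1.02, edgeR adjusted p = 0.185), which did not pass. Without KO1 the log2 fold change was -0.48, and without KO3 it was -0.07. Cxcl2 had 3.03 reads per Cxcl1 read in KO1 (95% exact binomial interval 2.84 to 3.24) and 1.96 in KO3 (1.81 to 2.12), against 4.30 in CTL1 (4.04 to 4.58) and 4.0 in CTL2 (3.77 to 4.25). Cxcl1 spans 90891245 to 90893121 and Cxcl2 spans 90903899 to 90905938 on chromosome 5, and no other gene's span overlaps them in RefSeq. Mouse Cxcl1 and Cxcl2 are close relatives, and the sources used here do not say how the counting treated reads that match both.

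**Figure D2:**
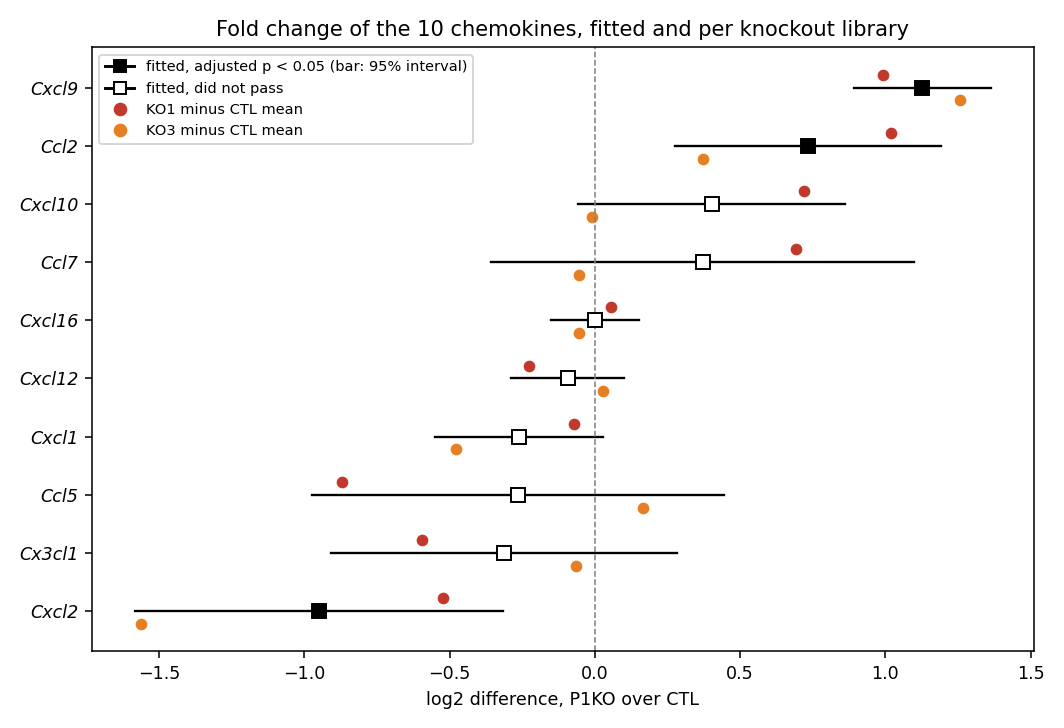
Log2 difference of P1KO over CTL for each chemokine. Squares are the fitted fold changes with their 95% intervals (filled where the adjusted p was below 0.05), and circles give KO1 and KO3 each minus the CTL mean; both circles lie above 0 for Cxcl9 and Ccl2 and below 0 for Cxcl2, Cxcl1 and Cx3cl1, while for Cxcl10 and Ccl7 KO1 is at 0.72 and 0.69 and KO3 is near 0.

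The listed ligands of CCR2, the receptor on inflammatory monocytes, were highest in KO1. Ccl2 (ENSMUSG00000035385), a major monocyte attractant of the injured liver, measured 38.8 CPM in KO1 and 24.7 in KO3, against 19.8 CPM in CTL1 and 18.4 CPM in CTL2. Both P1KO libraries were above the controls, KO1 by much more than KO3. The mean was 31.8 ± 9.96 CPM in P1KO and 19.1 ± 0.949 CPM in CTL (SD, n = 2 each), and the fitted level was 1.66-fold higher in P1KO (95% interval 1.21 to 2.28, log2 fold change 0.73 ± 0.20 SE, edgeR adjusted p = 0.0379).

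This call also lay near the threshold. Ccl2 had an adjusted p of 0.0509 in limma-voom, of 0.133 in edgeR without a filter on low counts and of 0.00624 in DESeq2. With a spread per group, limma-voom gave Ccl2 an adjusted p of 0.0130. The log2 fold change was 0.37 without KO1 and 1.02 without KO3.

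Ccl7 (ENSMUSG00000035373), another CCR2 ligand, is the next gene after Ccl2 on chromosome 11, with 8259 bases between them. It had few reads, 86 in KO1 and 51 in KO3, against 58 in CTL1 and 48 in CTL2. Only KO1 stood above the others. The fitted level was 1.29-fold that of CTL (95% interval 0.781 to 2.14, edgeR adjusted p = 0.450) and did not pass, so a change as large as that of Ccl2 was within its interval. Without KO3 its log2 fold change was 0.71, and without KO1 it was -0.06. Ccl2 had 7.94 reads per Ccl7 read in KO1 (95% exact binomial interval 6.34 to 10.1) and 8.63 in KO3 (6.45 to 11.8), against 5.98 in CTL1 (4.52 to 8.04) and 6.85 in CTL2 (5.05 to 9.48). Both P1KO ratios were above both CTL ratios, but the intervals of all 4 libraries overlap. Whether the balance of the pair differed between the genotypes was not tested. Ccl2 spans chromosome 11 from 82035577 to 82037452 and Ccl7 from 82045712 to 82047525, without overlap by another gene in RefSeq.

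**Figure D3:**
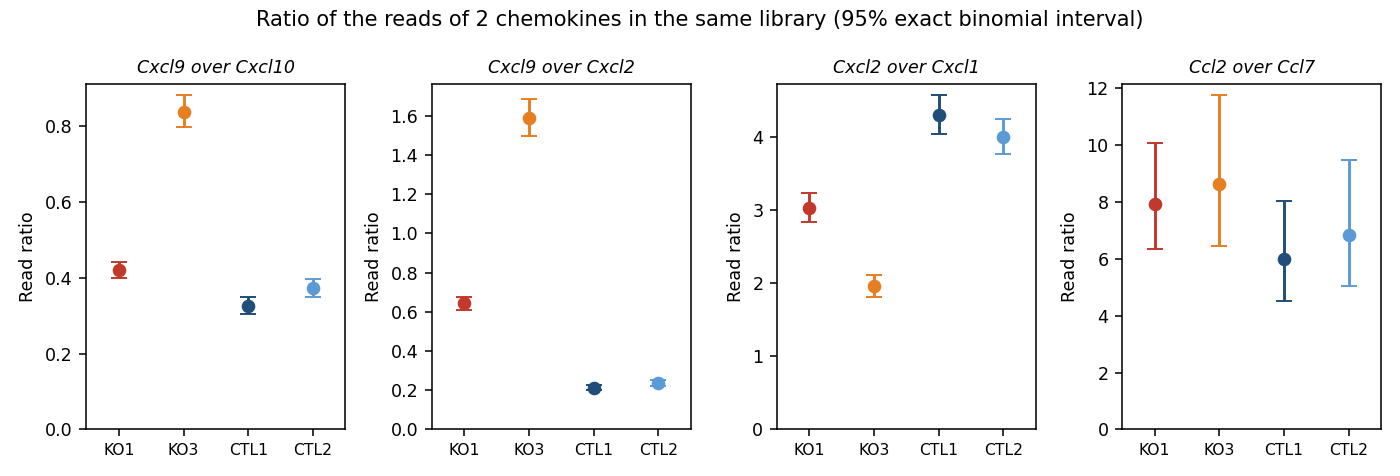
Reads of one chemokine per read of another in the same library, with 95% exact binomial intervals (counting error only); P1KO libraries are on the left of each panel. Cxcl9 over Cxcl10 and Cxcl9 over Cxcl2 are higher and Cxcl2 over Cxcl1 is lower in both P1KO libraries, and the Ccl2 over Ccl7 intervals overlap.

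Ccl5 (ENSMUSG00000035042), a CC chemokine that is abundant in T cells and NK cells, split the P1KO libraries. It measured 4.66 CPM in KO1 and 9.66 in KO3, against 8.83 CPM in CTL1 and 8.40 CPM in CTL2. KO1 was low and KO3 was slightly above both controls, so the groups overlapped. The fitted level in P1KO was 0.832 of that in CTL (95% interval 0.509 to 1.36, edgeR adjusted p = 0.590). Without KO3 the log2 fold change was -0.89, and without KO1 it was 0.17. Ccl5 lies on chromosome 11 from 83525778 to 83530518, where the span of Gm32650 overlaps it. As for Cxcl10, overlap of exons was not checked, and if present it would leave the same doubt over strand.

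Cxcl12 (ENSMUSG00000061353), the ligand of CXCR4 that retains haematopoietic and other CXCR4-bearing cells, did not pass. It measured 242 CPM in KO1 and 288 in KO3, against 285 CPM in CTL1 and 282 CPM in CTL2. The controls fell between the P1KO libraries. The fitted level in P1KO was 0.937 of that in CTL, with a narrow 95% interval of 0.819 to 1.07 (edgeR adjusted p = 0.474). Without KO3 the log2 fold change was -0.23, and without KO1 it was 0.03. The gene lies on chromosome 6 from 117168535 to 117181368 and has 3 RefSeq transcripts, which a count per gene does not separate.

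The membrane-bound chemokines also did not pass. Cxcl16 (ENSMUSG00000018920), a transmembrane ligand of CXCR6 that also takes up oxidised lipoprotein and guides NKT cells in the sinusoids, measured 169 CPM in KO1 and 157 in KO3, against 158 CPM in CTL1 and 168 CPM in CTL2. The groups overlapped fully. Its fitted log2 fold change was 0.00019, and the 95% interval of its fold, 0.900 to 1.11, was the narrowest of the 10 (edgeR adjusted p = 0.9999). Cxcl16 lies on chromosome 11 from 70454389 to 70459984 and shares part of its span with Zmynd15. Overlap of their exons was not checked, so its counts may carry the same doubt over strand as those of Cxcl10.

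Cx3cl1 (ENSMUSG00000031778), whose product fractalkine is a membrane-tethered ligand of CX3CR1 on monocytes and macrophages, was scarce. It had 48 reads in KO1 and 71 in KO3, against 72 in CTL1 and 76 in CTL2. Both P1KO libraries were below the controls, KO3 by 1 read. The fitted level in P1KO was 0.804 of that in CTL (95% interval 0.532 to 1.22, edgeR adjusted p = 0.435) and did not pass. Both no change and a fall to 0.532 of the CTL level are within that interval. The log2 fold change was -0.31, with -0.07 without KO1 and -0.61 without KO3, and it passed in none of its 11 alternatives. The gene lies on chromosome 8 from 94772180 to 94782427, where Gm51543 overlaps its span. The doubt over strand given for Cxcl10 may hold for Cx3cl1 too, where overlap of exons was likewise not checked.

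The P1KO libraries differed from each other in chemokine levels more than they did in most genes. The absolute log2 difference between KO1 and KO3 had a median of 0.59 over the 10 chemokines and 0.15 over all 15510 tested genes, and 9 of the 10 were above the value for all tested genes. Between CTL1 and CTL2 the medians were 0.08 and 0.10, and 4 of the 10 were above that of all tested genes. Low counts widen such differences, and Ccl5, Ccl7 and Cx3cl1 had at most 172, 86 and 76 reads in a library. Cxcl2 had at least 1825 and Cxcl10 at least 3447.

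For Cxcl2 the level in KO1 was 2.06 times that in KO3 (95% exact binomial interval 1.94 to 2.18), a difference that 95.5% of tested genes did not exceed. The corresponding CTL1 over CTL2 ratio was 0.988 (0.952 to 1.03). Cxcl10 had a KO1 over KO3 ratio of 1.66 (1.59 to 1.73) and Ccl2 one of 1.57 (1.39 to 1.77). Together with Ccl7 at 1.71 (1.19 to 2.46) and Cxcl1 at 1.33 (1.22 to 1.45), these were the listed ligands of CCR2, CXCR2 and CXCR3 that were higher in KO1.

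The opposite order was found for Ccl5, with a KO1 over KO3 ratio of 0.482 (0.366 to 0.631), for Cxcl9 with 0.832 (0.788 to 0.879) and for Cxcl12 with 0.839 (0.806 to 0.874). Cx3cl1, at 0.684 (0.464 to 1.0), was at the edge of counting error, and Cxcl16 at 1.08 (1.02 to 1.14) was close to even. The intervals compare these libraries and say nothing of the genotypes. Whether KO1 and KO3 differed in mouse, injury, isolation or cell make-up was not tested.

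**Figure D4:**
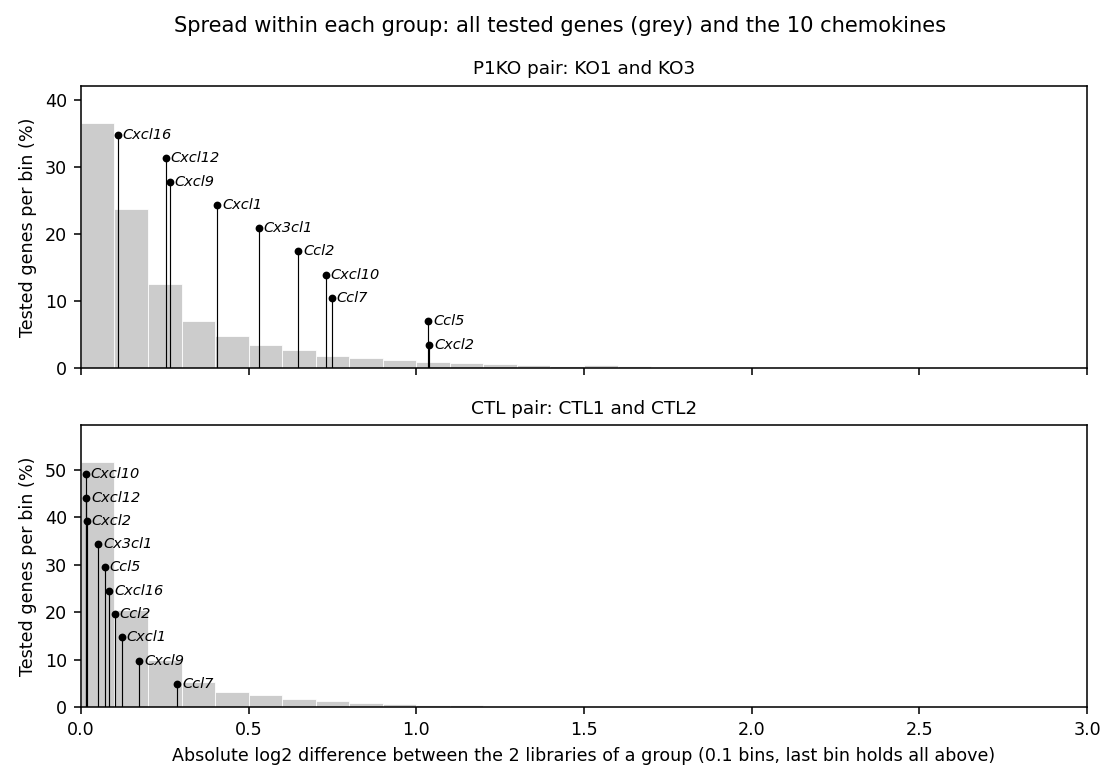
Absolute log2 difference between the 2 libraries of a group for all tested genes (grey, percent per bin) and for each chemokine (stems; their height only separates the names), for the P1KO pair (top) and the CTL pair (bottom). Most of the chemokines lie to the right of the bulk of genes in the P1KO pair, whereas in the CTL pair they lie within it.

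Summed over the 10 genes the chemokine reads came to 1200 CPM in KO1 and 998 CPM in KO3, against 1110 CPM in CTL1 and 1131 CPM in CTL2. The P1KO libraries lay on either side of the controls, so the total showed no common direction. The share of these reads from the CXCR3 ligands was 38.1% in KO1 (95% exact binomial interval 37.5% to 38.8%) and 35.8% in KO3 (35.0% to 36.5%), against 23.5% in CTL1 (22.9% to 24.1%) and 23.6% in CTL2 (23.0% to 24.2%). The CXCR2 ligands supplied 23.4% in KO1 (22.8% to 23.9%) and 15.5% in KO3 (15% to 16.1%), against 33.4% in CTL1 (32.7% to 34.1%) and 33.7% in CTL2 (33.0% to 34.3%). Both shifts were present in each P1KO library and were larger than the difference within either group. They follow from the single genes above and are no further evidence, and a share of reads is not a share of molecules because the transcripts differ in length.

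Cxcl9 and Cxcl2, the called CXC genes, were also set against each other inside each library, as a pair picked after the values were seen and given without a test. There were 0.643 Cxcl9 reads per Cxcl2 read in KO1 (95% exact binomial interval 0.610 to 0.677) and 1.59 in KO3 (1.5 to 1.69), against 0.213 in CTL1 (0.200 to 0.227) and 0.238 in CTL2 (0.224 to 0.253). In KO3 alone Cxcl9 had more reads than Cxcl2, which does not make it the more abundant transcript because transcript lengths were not used.

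**Figure D5:**
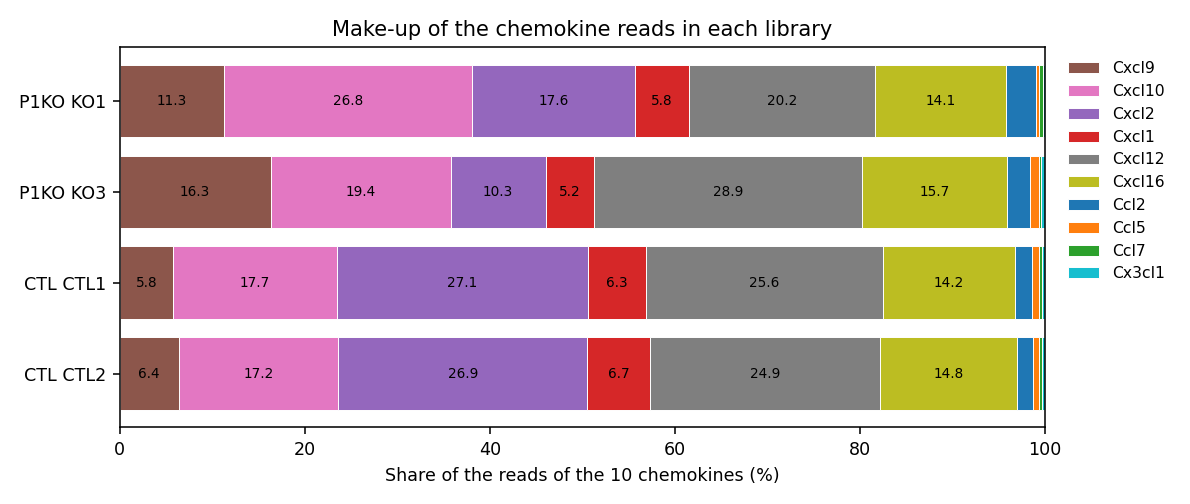
Share of the summed reads of the 10 chemokines taken by each gene, in percent, for each library (P1KO above CTL); numbers are printed for shares over 4%. The segments of Cxcl9 and Cxcl10 together take 38.1% and 35.8% in KO1 and KO3, against 23.5% and 23.6% in CTL1 and CTL2.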

How the data were processed

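RNA-seq read counts per gene were measured in 4 libraries, 2 P1KO and 2 CTL. The authors deposited 1 table of raw counts with 54532 Ensembl identifiers and no symbols. The submitters' processing notes list featureCounts 1.5.0-p3, HISAT2 2.0.5, fastp, CASAVA and the mm10 build. All 4 columns were used and 0 left out. The number of KO3 is in no sample title, so this column was placed by its genotype only.

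The symbols of the 10 chemokines came with the gene list. Their positions were found by symbol in RefSeq genes of GRCm38.p6, where all 10 matched. That table holds no Ensembl identifiers, so 0 others were matched, and 20 further gene and marker lists, among them receptors, other chemokines and leukocyte markers, are not analysed here. Counts were tested in edgeR 4.0.16 (R 4.3.3) with filterByExpr, TMM scaling and the quasi-likelihood F-test on all 4 libraries without covariates, and p-values were adjusted by Benjamini-Hochberg over 15510 genes. The SE is the log2 fold change over the square root of F, and its 95% interval uses the fit's degrees of freedom. Single libraries were compared on log2 CPM (prior count 2), and ratios of reads have exact binomial intervals. The script was tested on simulated data. Alternatives were DESeq2 1.42.0, its size factors, library totals, limma-voom (limma 3.58.1) with 1 spread or a spread per group, 2 other filters, each library left out, and summed CTL libraries. An exact permutation test of 2 against 2 libraries cannot give a p below 0.333, so none was used. All 10 genes are described, and the members and lists were chosen with earlier results of these data known.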

Additional observations from a re-analysis of the deposited data

How the results depend on the processing

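The count of chemokines called was 3 of 10 in edgeR and 1 of 10 without a filter on low counts (1633 genes called in all, 6.24% of those tested). With the CTL libraries summed, 0 of 10 and 152 genes (0.98%) passed. Leaving out 1 library gave 0 to 7 of the 10, from 120 genes in all (0.774%, without CTL2) to 5391 (34.8%, without KO1). The 0 arose without CTL1 and without CTL2, and the 7 without KO3, where a lone P1KO library is taken to vary like the CTL pair. The signs of Cxcl9, Ccl2, Cxcl2, Cxcl1 and Cx3cl1 were the same in every fit that tested them. Leaving out KO1 turned the log2 fold change of Ccl5 to 0.17 (range over single libraries left out -0.89 to 0.17), of Ccl7 to -0.063 (-0.063 to 0.71), of Cxcl10 to -0.0095 (-0.0095 to 0.72) and of Cxcl12 to 0.027 (-0.23 to 0.027). Cxcl16, at 0.00019, changed sign to -0.0165 with library totals, -0.00037 with limma-voom, -0.00046 with a spread per group, -0.0036 without a filter, -0.0144 with a filter of 5 CPM and -0.0056 with summed CTL libraries, and ranged from -0.0559 to 0.0540 with 1 library left out. The cause of these turns was not tested. The filter of 5 CPM removed Ccl7 and Cx3cl1. No paired analysis was possible because the count columns of the groups share only 1 number: the titles number the samples 1 and 2 in both groups, but column KO3 carries a number that no title has. A scaling without the other gene lists was not run, for lack of symbols. Depth limits Ccl5, Ccl7 and Cx3cl1, with at most 172, 86 and 76 reads in a library.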
